A study of Mus musculus with 24 samples.

Results

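Prdm1, Xbp1, Irf4, Sdc1, Mzb1 and Eaf2 are genes of plasma cell fate, the choice of a B cell to become an antibody-secreting plasma cell. They were read through every probe set that the platform annotation gives to 1 of these 6 genes and to no other gene, which came to 13 of the 45037 probe sets that are not controls. This rule uses no measured value, but the 6 genes were chosen with earlier results of these data known. Counts of their called probe sets are therefore a description and no independent support. Xbp1 and Sdc1 had 4 probe sets each, Irf4 had 2, and Prdm1, Mzb1 and Eaf2 had 1 each. For each gene the probe set that varied most, by its SD across all 24 arrays, is called the lead probe set.

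Plasma cell differentiation is driven by the transcription factors IRF4, Blimp-1 (the product of Prdm1) and XBP1. Blimp-1 silences much of the B cell program, while XBP1, which is activated by splicing of its mRNA when the endoplasmic reticulum is loaded with protein, expands the secretory apparatus. In the spleen, marginal zone B cells are known for turning into plasma cells faster than follicular B cells do, and transitional cells are the immature forms that precede both.

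Splenic B cells came from female mice aged 7 weeks of the strain NOD, which develops autoimmune diabetes, and of the strain C57BL/6/J (B6). The labels name 6 sorted populations. T1, T2FO, T3 and T2MZ are transitional, FO is follicular and MZ is marginal zone. Each strain and subset was measured on 2 Affymetrix arrays, which made 12 groups, 6 of NOD and 6 of B6. Each experiment pooled the spleens of 8 mice of 1 strain, depleted cells bearing CD3 or CD11b, sorted the subsets by surface IgM, B220, CD23, CD24, CD93 and the complement receptors CD21 and CD35, and was done again independently, so the arrays go back to 4 pools. In such bulk samples, fewer cells of a kind and less RNA per cell cannot be told apart. The deposited values are log2 values centred on the median of each probe set, so a value of 0 is the middle of the 24 arrays and no value is an expression level. The probes were designed on reference mouse sequence, so a lower NOD signal need not be less transcript.

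Upstream sequences are shown for Prdm1, Xbp1, Sdc1 and Eaf2, the genes with the widest spread between groups. The values can so be set beside the sequence in front of a start of each gene. The sequences are the 250 bases before a RefSeq gene start in assembly GRCm38.p6, written 5′ to 3′ on the strand of the gene, with motif matches in capitals. The Prdm1 window is chr10:44458749-44458998 on the minus strand and lies inside the annotated span of the gene, ahead of an internal start. The Xbp1 window is chr11:5520391-5520640 and the Sdc1 window chr12:8771146-8771395, both on the plus strand. Of 3 Eaf2 windows, the one with a match is chr16:36828260-36828509 on the minus strand. It too lies inside the annotated span of its gene, ahead of an internal start. The window at the outer start of Eaf2, chr16:36874827-36875076, held no match and is not shown.
Prdm1: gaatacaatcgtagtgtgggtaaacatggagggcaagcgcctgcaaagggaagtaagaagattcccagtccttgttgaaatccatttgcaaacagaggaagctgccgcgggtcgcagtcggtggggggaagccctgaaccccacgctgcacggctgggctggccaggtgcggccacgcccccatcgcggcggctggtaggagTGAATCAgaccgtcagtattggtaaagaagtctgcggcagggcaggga
Xbp1: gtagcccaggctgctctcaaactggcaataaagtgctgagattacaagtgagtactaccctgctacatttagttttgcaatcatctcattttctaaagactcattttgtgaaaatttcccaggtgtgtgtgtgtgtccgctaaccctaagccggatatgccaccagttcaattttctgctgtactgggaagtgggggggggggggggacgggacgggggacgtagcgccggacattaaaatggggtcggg
Sdc1: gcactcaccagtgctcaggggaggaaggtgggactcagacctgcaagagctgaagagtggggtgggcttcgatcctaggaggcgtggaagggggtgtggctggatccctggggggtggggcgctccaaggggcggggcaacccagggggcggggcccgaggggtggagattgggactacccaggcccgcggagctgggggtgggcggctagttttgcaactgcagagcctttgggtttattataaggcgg
Eaf2: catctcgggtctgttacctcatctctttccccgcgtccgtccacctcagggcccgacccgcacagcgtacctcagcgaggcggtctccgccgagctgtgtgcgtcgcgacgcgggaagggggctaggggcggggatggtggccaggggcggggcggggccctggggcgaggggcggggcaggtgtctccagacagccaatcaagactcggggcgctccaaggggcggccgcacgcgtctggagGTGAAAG
Matches to 5 motifs were sought on both strands of the 7 windows that RefSeq gave for these genes and Irf4, and of all 32851 windows. The composite of ETS and IRF factors, GGAA and GAAA with 2 free bases between them, stands in 2.3% of all windows, the IRF repeat, GAAA and GAAA with 2 free bases between them, in 2.98% and the XBP1 core ACGTGG in 6.91%, and no window of these genes held any of them. The PRDM1 core GTGAAAG stands in 3.57% of all windows and was found in the Eaf2 window shown, where it begins at position -7 from the start. The AP-1 motif TGANTCA, which reads the same on both strands, stands in 6.75% of all windows and was found in the Prdm1 window, beginning at position -48. No match overlapped another motif. A match describes letters only, and binding was not measured. The 7 windows ran from 40.8% G and C in an Eaf2 window not shown to 71.6% in the Eaf2 window shown, against a median of 52.4% over all windows.

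The transcripts of the sorted surface proteins went against the subset labels of NOD. Cr2 encodes CD21 and CD35, which are low on immature and high on marginal zone B cells. In NOD arrays labelled T1 it was 1.20 ± 0.06 (SD, n = 2), the highest NOD group mean, and in those labelled T2FO it was -1.29 ± 0.14, the lowest, whereas the lowest B6 group mean was -1.72 ± 0.15 in T1 and the highest 0.86 ± 0.52 in MZ. Cd93, whose protein marks immature stages, was -2.09 ± 0.07 in NOD arrays labelled T1, against 3.06 ± 0.11 in B6 T1. NOD groups are therefore named as labelled, and a strain difference within a label may compare unlike stages. A control at the 5′ end of beta-actin, which drops when RNA or its amplification is incomplete, lay between -0.54 and 0.79 in NOD arrays and between -4.04 and 0.47 in B6 arrays. It was below -3 in 1 of the 2 arrays of every B6 group.

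All 6 genes had their highest group mean in the same group, NOD labelled T2FO, when read by their lead probe sets. For Prdm1, Xbp1 and Eaf2 both arrays of that group lay above both arrays of the next group, while for Sdc1, Mzb1 and Irf4 they overlapped it. The lead over NOD labelled T1 was small for Mzb1 (0.67 against 0.65) and Irf4 (0.26 against 0.22). Some other probe sets peaked elsewhere, Irf4 1421174_at in NOD labelled MZ (0.30), Sdc1 1415944_at in B6 T3 (0.80) and Xbp1 1420012_at in B6 T2MZ (0.41). The remaining Xbp1 and Sdc1 probe sets peaked in NOD labelled T2FO. The rest of the order differed from gene to gene, as the group means of the 13 probe sets show. Prdm1 and Mzb1 were also high in NOD labelled T1 and in B6 MZ, where Sdc1 was low.

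**Figure D1:**
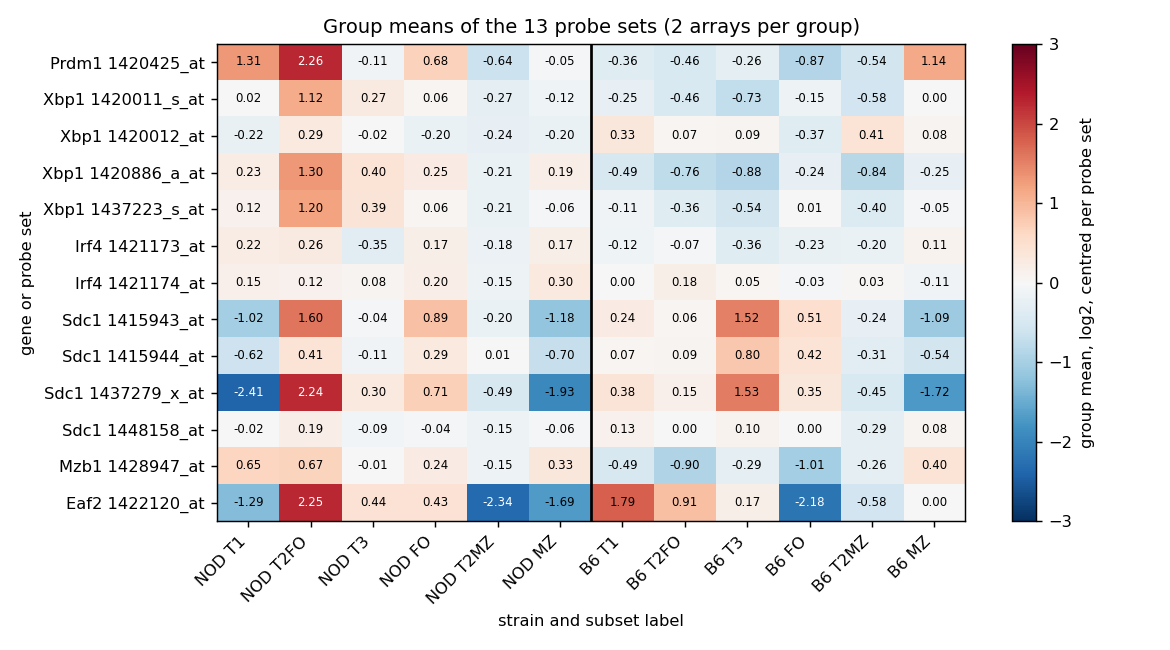
Group means of the 13 probe sets (rows) in the 6 NOD groups (left of the line) and the 6 B6 groups (right of it), each the mean of 2 arrays, in log2 centred per probe set. The NOD column labelled T2FO holds the highest mean of the lead probe set of every gene, 2.26 for Prdm1 and 2.25 for Eaf2, while the Irf4 rows stay within 0.36 of 0.

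Prdm1 encodes the repressor Blimp-1 and was measured by probe set 1420425_at. In NOD it was 1.42 and 1.20 on the arrays labelled T1, 1.97 and 2.54 on T2FO, 0.11 and -0.33 on T3, -0.05 and 1.41 on FO, -0.81 and -0.47 on T2MZ, and -0.23 and 0.14 on MZ. In B6 it was -0.77 and 0.06 in T1, -0.80 and -0.12 in T2FO, -0.78 and 0.26 in T3, -0.58 and -1.15 in FO, -1.13 and 0.05 in T2MZ, and 1.24 and 1.03 in MZ. The group labelled T2FO stood above all others, NOD labelled T1 (1.31 ± 0.16) and B6 MZ (1.14 ± 0.15) came next with overlapping arrays, and from there down every group overlapped its neighbour, ending with B6 FO at -0.87 ± 0.40. The NOD replicates labelled FO lay 1.46 apart, the widest replicate gap of this gene.

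Xbp1 encodes the transcription factor of the secretory apparatus. Its lead probe set 1420886_a_at gave, in NOD, 0.02 and 0.44 on the arrays labelled T1, 1.01 and 1.60 on T2FO, 0.57 and 0.23 on T3, 0.13 and 0.38 on FO, -0.48 and 0.06 on T2MZ, and 0.20 and 0.18 on MZ. In B6 it gave -0.75 and -0.22 in T1, -0.91 and -0.61 in T2FO, -1.48 and -0.27 in T3, -0.45 and -0.02 in FO, -1.18 and -0.49 in T2MZ, and -0.57 and 0.08 in MZ. NOD labelled T2FO stood above all others, and the 6 B6 group means were the 6 lowest, from -0.24 to -0.88, each overlapping its neighbour. Over the 24 arrays this probe set, 1420011_s_at and 1437223_s_at correlated with each other at 0.84 to 0.95, whereas 1420012_at correlated with them at -0.10 to 0.16 and ranged only from -0.56 to 0.46. Spliced and unspliced Xbp1 mRNA were not told apart.

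Irf4, the factor that acts upstream of Prdm1, hardly varied. Its lead probe set 1421173_at ranged from -0.81 to 0.69 with a median of 0.08 in NOD arrays, and from -0.85 to 0.61 with a median of -0.23 in B6 arrays. Every group overlapped its neighbour, the group means ran from 0.26 ± 0.51 in NOD labelled T2FO to -0.36 ± 0.63 in B6 T3, and 1421174_at stayed between -0.37 and 0.50. The spread of replicates was larger than most gaps between groups, with a root mean square of 0.52 in NOD and 0.71 in B6 for the lead probe set.

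**Figure D2:**
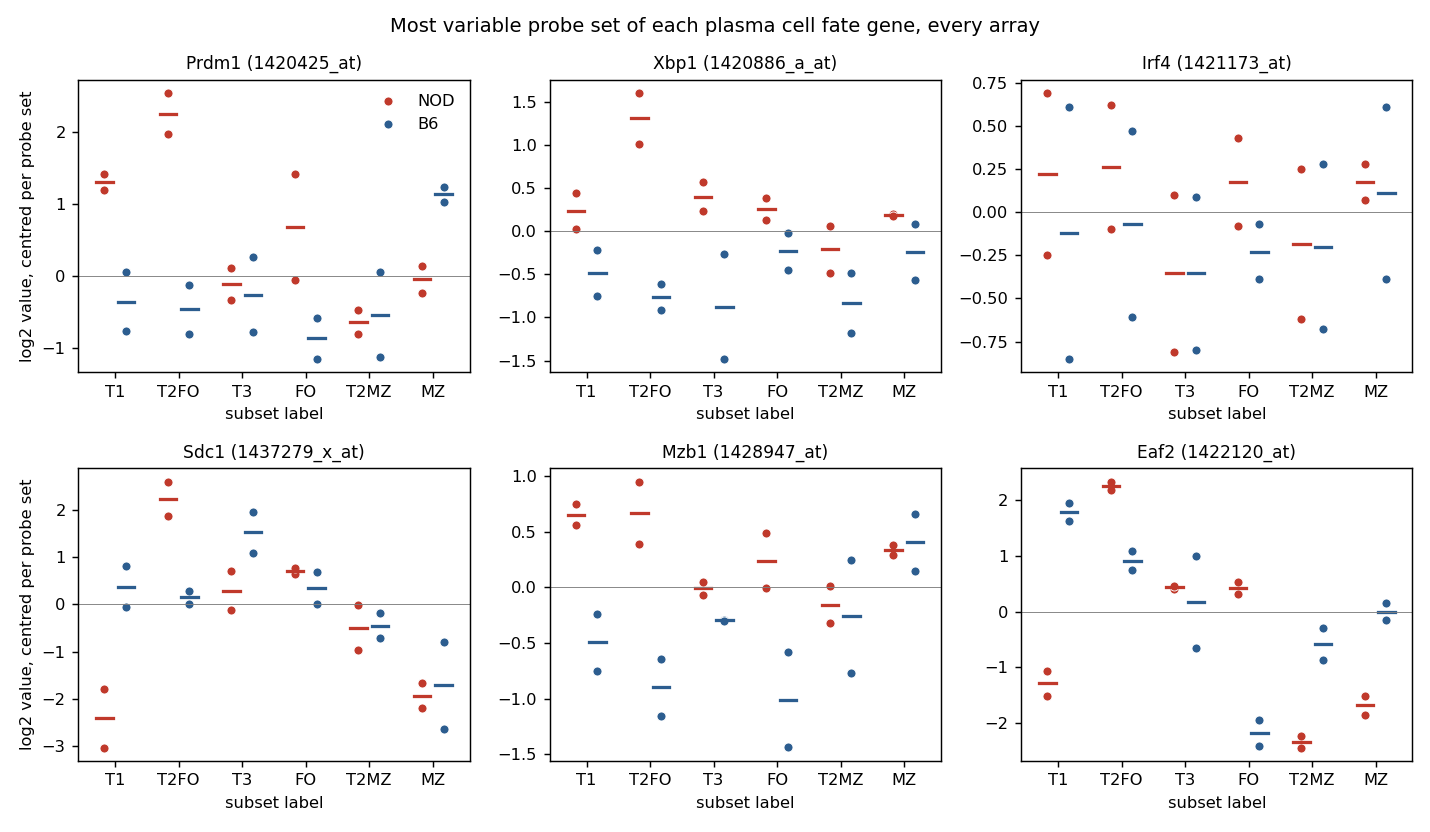
Lead probe set of each gene on every array, with the 6 subset labels along the horizontal axis and the log2 value centred per probe set on the vertical axis, scaled separately for each gene. Dots are arrays and bars are group means, NOD in red to the left of B6 in blue. Both NOD arrays labelled T2FO lie above every B6 array for Prdm1, Xbp1 and Eaf2, and Irf4 shows wide replicate gaps in most groups.

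Sdc1 encodes syndecan-1 (CD138), the surface proteoglycan by which plasma cells are recognised. Its lead probe set 1437279_x_at gave, in NOD, -3.03 and -1.80 on the arrays labelled T1, 1.88 and 2.60 on T2FO, -0.11 and 0.70 on T3, 0.64 and 0.77 on FO, -0.97 and -0.01 on T2MZ, and -2.20 and -1.66 on MZ. In B6 it gave -0.06 and 0.81 in T1, 0.02 and 0.28 in T2FO, 1.96 and 1.10 in T3, 0.01 and 0.69 in FO, -0.72 and -0.18 in T2MZ, and -2.63 and -0.80 in MZ. The order was headed by NOD labelled T2FO and B6 T3 (1.53 ± 0.61), which overlapped, and closed by B6 MZ, NOD labelled MZ and NOD labelled T1, which overlapped as well. The suffix x marks probes that may also bind other transcripts, but 1415943_at and 1415944_at correlated with it at 0.88 and 0.82 over the 24 arrays. The remaining 1448158_at correlated with the others at 0.27 to 0.39 and ranged from -0.64 to 0.45.

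Mzb1 encodes a protein of the endoplasmic reticulum that helps to assemble IgM and is known to be abundant in marginal zone B cells and plasma cells. Probe set 1428947_at gave, in NOD, 0.56 and 0.75 on the arrays labelled T1, 0.39 and 0.95 on T2FO, -0.07 and 0.05 on T3, -0.01 and 0.49 on FO, -0.32 and 0.01 on T2MZ, and 0.38 and 0.29 on MZ. In B6 it gave -0.24 and -0.75 in T1, -0.64 and -1.16 in T2FO, -0.29 and -0.30 in T3, -1.44 and -0.58 in FO, 0.25 and -0.77 in T2MZ, and 0.15 and 0.66 in MZ. Each group overlapped its neighbour in the order, which began with NOD labelled T2FO (0.67 ± 0.40), NOD labelled T1 (0.65 ± 0.14) and B6 MZ (0.40 ± 0.37) and ended with B6 FO (-1.01 ± 0.61).

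Eaf2 encodes a partner of the ELL transcription elongation factors that is known to be abundant in germinal centre B cells. Probe set 1422120_at gave, in NOD, -1.52 and -1.06 on the arrays labelled T1, 2.18 and 2.33 on T2FO, 0.41 and 0.46 on T3, 0.32 and 0.53 on FO, -2.24 and -2.44 on T2MZ, and -1.86 and -1.51 on MZ. In B6 it gave 1.63 and 1.95 in T1, 0.75 and 1.08 in T2FO, -0.66 and 0.99 in T3, -2.42 and -1.94 in FO, -0.87 and -0.29 in T2MZ, and -0.15 and 0.15 in MZ. Eaf2 had the widest spread of the 6 genes between groups in B6, 3.97 between the highest and lowest group means, and 4.59 in NOD, against a replicate spread of 0.55 and 0.19. NOD labelled T2FO, B6 T1 and B6 T2FO headed the order with no overlap between neighbours, and NOD labelled T2MZ and B6 FO, which overlapped, were at its end.

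Prdm1, Sdc1 and Eaf2 differed among the NOD subsets, and Sdc1 and Eaf2 among those of B6. In the limma F test over the 6 NOD subsets, 5 of the 13 probe sets were called at a Benjamini-Hochberg adjusted p under 0.05 over all probe sets, where 1.77% of all probe sets were called. They were Prdm1 (adjusted p = 0.0279), Eaf2 (adjusted p = 7.44e-05) and the Sdc1 probe sets 1437279_x_at (adjusted p = 0.00234), 1415943_at (adjusted p = 0.0338) and 1415944_at (adjusted p = 0.0376). In B6 the same test called 2 of 13, against 1.41% of all probe sets, namely Eaf2 (adjusted p = 7.48e-04) and Sdc1 1415944_at (adjusted p = 0.0312). The NOD count was 0 without either NOD replicate number, when a single array stands for each NOD group and is assumed to vary like B6. The B6 calls covered 2 genes, and 4 genes without B6 replicate 2 of all subsets.

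Over all 6 subsets, none of the 13 probe sets was called between the strains. Arrays of 1 strain and 1 replicate number were averaged as a pool, although the labels do not tie the numbers to pools and the B6 numbers of FO and MZ ran opposite to the others. The limma test on these 4 means called 0 of 13, with 3 of 13 at an unadjusted p under 0.05, while it called 3.02% of all probe sets. Mzb1 averaged 0.29 in NOD pools and -0.42 in B6 pools, a difference of 0.71 ± 0.13 (SE, adjusted p = 0.0754). Xbp1 1420886_a_at averaged 0.36 in NOD pools and -0.57 in B6 pools (0.93 ± 0.24, adjusted p = 0.139), and Prdm1 0.58 in NOD pools and -0.22 in B6 pools (0.80 ± 0.22, adjusted p = 0.153). Mzb1, Prdm1 and this Xbp1 probe set thus had higher NOD means with an unadjusted p under 0.05, and the remaining probe sets did not reach it. With the B6 numbers of FO and MZ crossed, 0 of the 6 genes and 59 of all probe sets were called, against 1361 as numbered. Without B6 replicate 2 of all subsets 1 gene was called, and with the 24 arrays taken as independent 3 genes were.

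Within the label T2FO, Prdm1, Xbp1 and Mzb1 were higher in NOD. The limma contrast called 4 of 13 probe sets, all higher, against 2.58% of all probe sets called in either direction and 1.27% called higher. Prdm1 averaged 2.26 in NOD and -0.46 in B6, a difference of 2.71 ± 0.50 (SE, 95% interval 1.65 to 3.77, adjusted p = 0.00821). The Xbp1 probe sets 1420886_a_at and 1437223_s_at rose by 2.06 ± 0.38 (adjusted p = 0.0084) and 1.56 ± 0.39 (adjusted p = 0.0474), and Mzb1 by 1.56 ± 0.35 (adjusted p = 0.0272). For each of these 4 both NOD arrays lay above both B6 arrays. The same held for Sdc1 1437279_x_at, with 2.09 ± 0.58 (adjusted p = 0.0797), and for Eaf2, with 1.34 ± 0.38 (adjusted p = 0.0902), which did not pass. Irf4 1421173_at differed by 0.33 with a 95% interval from -0.90 to 1.56, which spans both directions. The median difference of the 13 probe sets was 1.54, against -0.01 over all probe sets. Among the sort transcripts, the same limma contrast called Cd93 lower in NOD, with 0.21 in NOD and 2.75 in B6 (-2.54 ± 0.28, adjusted p = 1.76e-04). The label T2FO may thus compare unlike stages, and strain and stage cannot be told apart in it.

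The T2FO calls depended on single arrays. Without NOD T2FO replicate 2 none of the 6 genes was called, with Prdm1 at 2.43 (adjusted p = 0.10), and without B6 T2FO replicate 1 none was called either, with Prdm1 at 2.37 (adjusted p = 0.0806). Without B6 T2FO replicate 2, Mzb1 was at 1.30 (adjusted p = 0.207) and Xbp1 1437223_s_at at 1.93 (adjusted p = 0.0632). With the 4 compared arrays fitted alone the differences stayed the same, 0 genes were called and the adjusted p of Prdm1 was 0.187. Leaving out the 6 B6 arrays with a 5′ control below -3 gave 5 called genes, with Prdm1 at 3.05 (adjusted p = 0.00602).

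**Figure D3:**
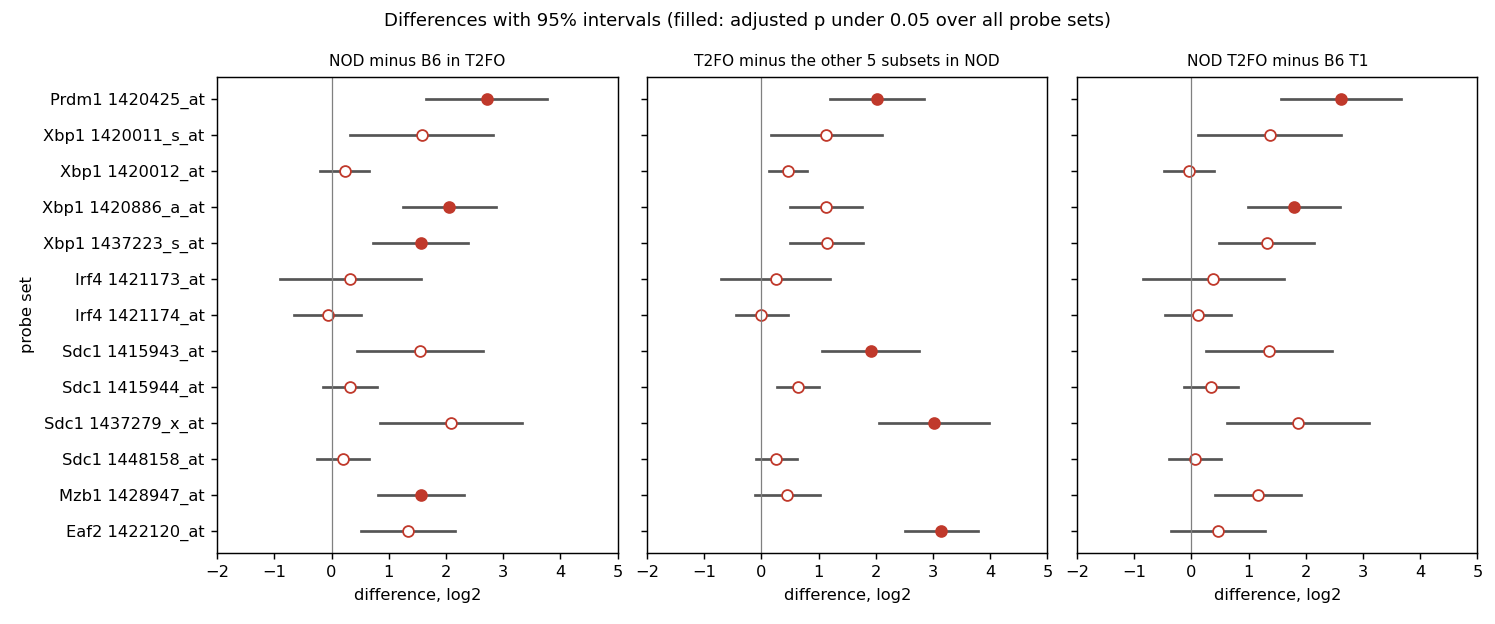
Differences of the 13 probe sets (rows) in log2 with 95% intervals from limma, for NOD minus B6 in T2FO, for T2FO minus the mean of the other 5 subsets in NOD, and for NOD T2FO minus B6 T1. Filled dots have an adjusted p under 0.05 over all probe sets, 4, 4 and 2 in the 3 panels, and the Irf4 intervals cross 0 in each.

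Within the other labels the differences between NOD and B6 groups lay mostly in Eaf2, and their direction changed with the label. They may compare unlike stages, since sort transcripts were called as well. These were Cr2, Cd93 and Ptprc, the gene of B220, in T1, Cd93 in T3 and T2MZ, and Fcer2a, which encodes CD23, in MZ. Strain and stage cannot be told apart here. In T1, 2 of 13 probe sets were called, both lower in NOD, against 6.31% of all probe sets. Eaf2 was -1.29 in NOD labelled T1 and 1.79 in B6 T1, a difference of -3.08 ± 0.38 (adjusted p = 1.50e-04), and Sdc1 1437279_x_at was -2.41 in NOD and 0.38 in B6 (-2.79 ± 0.58, adjusted p = 0.00839). The Sdc1 call was lost without NOD T1 replicate 1 (adjusted p = 0.137) or without B6 T1 replicate 2 (adjusted p = 0.0861). Prdm1 lay the other way, with 1.31 in NOD and -0.36 in B6 (1.67 ± 0.50), and did not pass (adjusted p = 0.0617). Of the lists for other cells, the B-1 list's Ahnak (-2.58 in NOD, 1.35 in B6) and the T cell list's Cd2 (-0.94 in NOD, 0.64 in B6) were also called lower in NOD labelled T1. The other T cell genes did not follow Cd2, with differences of 0.72 for Cd3g, 0.29 for Cd3d, 0.05 for Cd247 and -0.10 for Cd3e. Of the B-1 list, Plac8 lay the other way (0.64 in NOD, 0.06 in B6). The part of such cells was not tested.

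In FO, Eaf2 alone was called, 1 of 13 against 2.88% of all probe sets, with 0.43 in NOD and -2.18 in B6, a difference of 2.61 ± 0.38 (adjusted p = 0.00165). This call held when any 1 of the 4 arrays was left out. Some germinal centre, myeloid, dividing cell and B-1 cell markers were called higher there too, but not all members of these lists moved. Of 5 measured germinal centre genes 2 were called higher in NOD labelled FO, Mybl1 by 1.87 ± 0.36 (adjusted p = 0.0104) and S1pr2 by 1.70 ± 0.23 (adjusted p = 9.39e-04), and of 6 myeloid genes 2, Cd68 by 2.68 ± 0.47 (adjusted p = 0.00541) and Adgre1 by 2.41 ± 0.51 (adjusted p = 0.0196). Of 5 dividing cell genes 2 were called higher, Mki67 by 3.43 and Cdk1 by 2.77. Of 5 B-1 cell genes, Plac8 was called higher by 1.15. Cd5 and Zbtb32 were higher without a call, while Ahnak (-0.56 in NOD, 0.43 in B6) and Bhlhe41 (-0.08 in NOD, 0.09 in B6) were lower. Of the uncalled myeloid genes, Csf1r differed by 3.21, and Lyz2, Cd14 and Itgam by 0.21, 0.01 and -0.07. Of the uncalled germinal centre genes, Rgs13 differed by 3.49, Gcsam by 1.38 and Fas by 0.11. The part of these cells in the Eaf2 difference was not tested.

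In T2MZ and in MZ, Eaf2 was again the 1 call of 13, against 2.73% and 2.52% of all probe sets, and here it was lower in NOD. It was -2.34 in NOD and -0.58 in B6 in T2MZ (-1.76 ± 0.38, adjusted p = 0.0224), and -1.69 in NOD and 0.00 in B6 in MZ (-1.69 ± 0.38, adjusted p = 0.0297). Both calls were lost without any 1 of their 4 arrays, at adjusted p of 0.0528 to 0.169 in T2MZ and 0.0688 to 0.247 in MZ. In T2MZ, 3 of 5 dividing cell genes and 1 of 5 B-1 cell genes (Plac8) were also called lower in NOD, and their part was not tested. In T3 none of 13 was called by limma, 4 had an unadjusted p under 0.05, and 1.72% of all probe sets were called. Sdc1 1415944_at came nearest, with -0.11 in NOD and 0.80 in B6 (-0.91 ± 0.22, adjusted p = 0.0529). Without B6 T3 replicate 2, which also had the highest level of the dividing cell markers (median 2.42), 2 genes were called in T3.

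T2FO against the other 5 subsets was compared within each strain. This contrast was picked with earlier results of these data known, and its p-values do not allow for that choice. In NOD, limma called 4 of 13 probe sets, all higher in T2FO, against 0.644% of all probe sets called in either direction and 0.364% called higher. Eaf2 averaged 2.25 in T2FO and -0.89 in the other 5 subsets, a difference of 3.14 ± 0.30 (adjusted p = 3.49e-04). Sdc1 1437279_x_at rose by 3.01 ± 0.45 (adjusted p = 0.00638), 1415943_at by 1.91 ± 0.40 (adjusted p = 0.0432) and Prdm1 by 2.02 ± 0.38 (adjusted p = 0.0268). Xbp1 1420886_a_at, with 1.13 ± 0.29 (adjusted p = 0.122), and Mzb1, with 0.45 ± 0.27 (adjusted p = 0.60), did not pass. None of the 6 genes was called without NOD replicate 1 of all subsets (Eaf2 3.13, adjusted p = 0.0943) or without NOD replicate 2 of all subsets (Eaf2 3.15, adjusted p = 0.241).

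In B6 the same comparison called 0 of 13 by limma, with 1 at an unadjusted p under 0.05, and 0.0311% of all probe sets. Prdm1 was -0.46 in T2FO and -0.18 in the other 5 B6 subsets (-0.28 ± 0.38), and Eaf2 was 0.91 in T2FO and -0.16 in the others (1.08 ± 0.30, adjusted p = 0.637). The difference between the strains in this contrast called 0 of 13, with 9 at an unadjusted p under 0.05, and 0.00444% of all probe sets. It was 2.88 ± 0.64 for Sdc1 1437279_x_at (adjusted p = 0.304), 2.29 ± 0.54 for Prdm1 (adjusted p = 0.40) and 2.07 ± 0.42 for Eaf2 (adjusted p = 0.226). With the replicate number as a block, 1 of the 6 genes was called in this difference, with the B6 FO and MZ numbers crossed in that block 3, and with quantile scaling 1, so the call depends on the fit.

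MZ against FO of B6 was the comparison of the marginal zone cells with the follicular ones where labels and sort transcripts ran together. Eaf2 was 0.00 in MZ and -2.18 in FO, a difference of 2.18 ± 0.38 (adjusted p = 0.0148), the 1 call of 13 against 0.564% of all probe sets, and the call was lost without any 1 of the 4 arrays (adjusted p 0.0571 to 0.156). Prdm1 was 1.14 in MZ and -0.87 in FO (2.00 ± 0.50, adjusted p = 0.117), and Mzb1 was 0.40 in MZ and -1.01 in FO (1.41 ± 0.35, adjusted p = 0.116), both with no overlap of arrays but not past the threshold. Sdc1 1415944_at lay the other way, with -0.54 in MZ and 0.42 in FO (-0.96 ± 0.22, adjusted p = 0.0841). In NOD, limma called 0 of 13 between the groups labelled MZ and FO, with 4 at an unadjusted p under 0.05, and 0.122% of all probe sets, and Eaf2 had the opposite sign there, with -1.69 in MZ and 0.43 in FO (-2.11 ± 0.38, adjusted p = 0.0528). The difference between these contrasts of the strains was not tested. Markers of other cells moved in both. In B6, Plac8 of the B-1 list was called higher in MZ. That list had a median difference of 0.67, but its Ahnak was lower in MZ (-0.86) than in FO (0.43), and Bhlhe41 was 0.03 and 0.09. The dividing cell list had a median difference of 1.86 and the myeloid list one of 0.83, with B6 MZ replicate 2 at a myeloid median of 1.52. In NOD, 2 of 5 germinal centre genes, S1pr2 and Mybl1, were called lower in MZ. The myeloid, dividing cell and B-1 lists had median differences of -0.95, -0.70 and -0.68 there, with no gene called. Their part was not tested.

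Because of the sort transcripts, NOD labelled T2FO was also set against B6 T1, the groups lowest in Cr2 of each strain. Limma called 2 of 13 probe sets, both higher in NOD, against 2.32% of all probe sets called in either direction and 1.17% called higher. Prdm1 was 2.26 in NOD T2FO and -0.36 in B6 T1 (2.61 ± 0.50, adjusted p = 0.011), and Xbp1 1420886_a_at was 1.30 in NOD T2FO and -0.49 in B6 T1 (1.79 ± 0.38, adjusted p = 0.0215). Eaf2, which was high in both, differed by 0.47 with a 95% interval from -0.35 to 1.28. No gene was called without NOD T2FO replicate 2 (Prdm1 2.33, adjusted p = 0.129) or without B6 T1 replicate 1 (Prdm1 2.20, adjusted p = 0.15). Cd93 differed between these groups, with 0.21 in NOD T2FO and 3.06 in B6 T1 (-2.85 ± 0.28, adjusted p = 5.75e-05), so they are alike in Cr2 and not in that sort transcript.

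Other genes of plasma cells formed a list of 16, with receptors, secretory enzymes and chaperones among them. They were read by their lead probe sets, and 7 of them rose in NOD T2FO against B6 T2FO while none fell. All 16 were measured, and 1.79% of the 18193 genes were called higher there. The list was chosen with earlier results of these data known, so its counts are a description and no independent support. Txndc5, a disulfide isomerase, was 3.39 in NOD and -0.23 in B6 (3.62 ± 0.50, adjusted p = 0.00117). Tnfrsf17, which encodes the survival receptor BCMA of plasma cells, was 2.23 in NOD and 0.00 in B6 (2.24 ± 0.30, adjusted p = 8.09e-04). Creld2, a chaperone of the endoplasmic reticulum, was higher by 1.62 ± 0.22 (adjusted p = 9.18e-04) and Trp53inp1, a stress-induced gene, by 2.02 ± 0.31 (adjusted p = 0.00244). The median difference of the 16 genes was 1.67, against 0.00 over all genes.

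Within NOD, 9 of the 16 genes rose in T2FO against the other 5 subsets and none fell, where 0.599% of all genes were called higher. Both the list and this contrast were chosen with earlier results of these data known. Tnfrsf17 rose by 2.08 ± 0.23 (adjusted p = 0.00102), Creld2 by 1.37 ± 0.17 (adjusted p = 0.00173), Txndc5 by 2.91 ± 0.39 (adjusted p = 0.00284) and Fkbp11, a prolyl isomerase of the secretory pathway, by 1.79 ± 0.28 (adjusted p = 0.00859). Against B6 T1, 6 of 16 rose and none fell, where 1.66% of all genes were called higher, and the median difference was 1.30. The median of the list on single arrays was 1.22 and 1.70 in NOD T2FO and lay between -0.48 and 0.57 on the other 22 arrays. Jchain, which joins IgM and IgA into polymers, had the largest group mean of the list, 3.85 in NOD T2FO against 0.20 in B6 T2FO, but replicates of most groups lay far apart and the difference of 3.65 ± 1.71 did not pass (adjusted p = 0.385). Jchain is named for its level, after its values were seen.

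**Figure D4:**
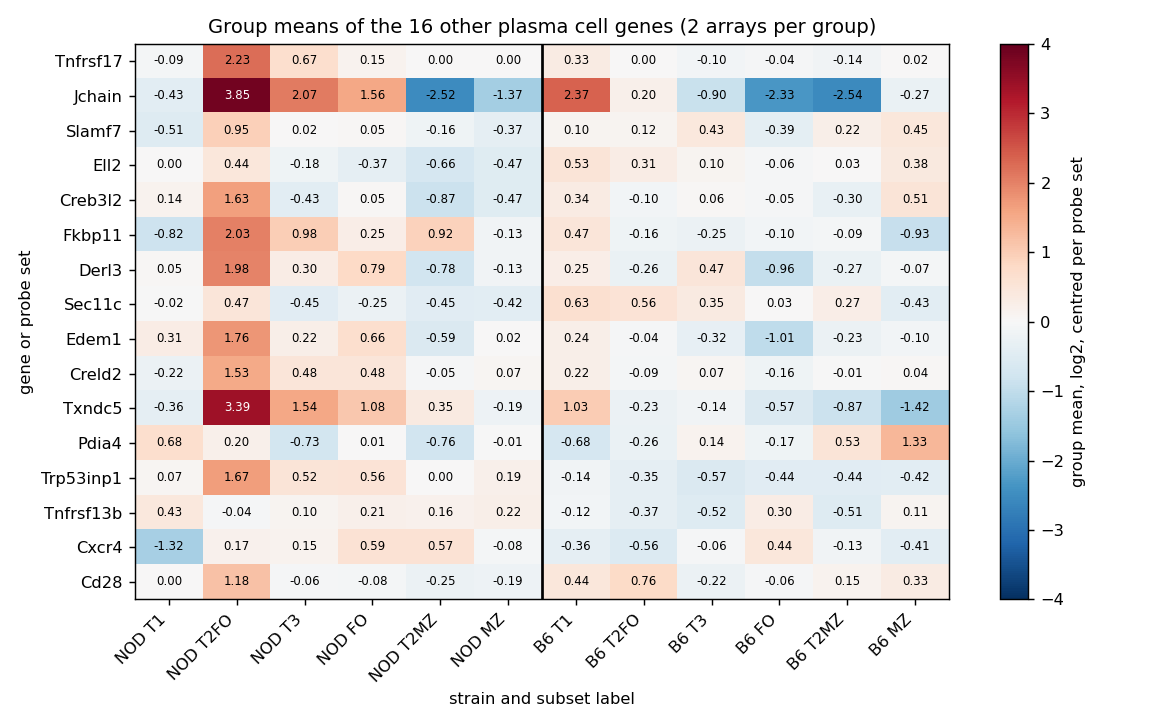
Group means of the 16 other plasma cell genes (rows) in the 6 NOD groups (left of the line) and the 6 B6 groups (right of it), each the mean of 2 arrays, in log2 centred per probe set. The NOD column labelled T2FO holds 3.39 for Txndc5 and 2.23 for Tnfrsf17, and Jchain is high in B6 T1 as well.

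Factors that hold B cell identity or oppose plasma cell fate were read as a list of 12, all measured. This list too was chosen with earlier results of these data known. Within NOD none of the 12 was called in T2FO against the other 5 subsets, with a median difference of -0.17. Between the strains over all subsets 3 of 12 rose in NOD, where 2.34% of all genes were called higher. These were Ets1, which restrains plasma cell formation, at 1.00 in NOD pools and -1.56 in B6 pools (2.56 ± 0.13, adjusted p = 0.0141), Irf8 (1.22 ± 0.12, adjusted p = 0.0246) and Ciita, the activator of MHC class II genes (1.88 ± 0.21, adjusted p = 0.0331). These calls rest on the pool means as numbered. Far fewer probe sets were called with the B6 numbers of FO and MZ crossed, and whether these calls held there is not given here. In T2FO, Ets1 alone was called, by 2.38 ± 0.50 (adjusted p = 0.0202). Bach2, a repressor of Prdm1, was -2.09 in NOD labelled T1 and 0.62 in B6 T1 (-2.71 ± 0.41, adjusted p = 8.24e-04), while Ets1 was called higher there by 2.11. Called higher in NOD were 2 of 12 in T3, 2 in FO, 3 in T2MZ and 4 in MZ, with none lower in these. Of all probe sets, 1.72%, 2.88%, 2.73% and 2.52% were called in either direction in these subsets. Ets1 and Irf8 were among the called factors each time.

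Markers of other cells were read beside the T2FO results. None of the T cell, myeloid, dendritic, NK, erythroid, germinal centre or dividing cell genes was called by limma in NOD T2FO against B6 T2FO or against the other NOD subsets. The dividing cell genes still had a median difference of 1.11 between NOD T2FO and B6 T2FO, and for Mki67, Cdk1 and Birc5 both NOD arrays lay above both B6 arrays. Of 5 measured B-1 cell genes, Zbtb32 rose in NOD T2FO against B6 T2FO (1.47 ± 0.28, adjusted p = 0.0117), and Zbtb32 (1.42 ± 0.22, adjusted p = 0.00782) and Ahnak (2.35 ± 0.38, adjusted p = 0.00924) rose against the other NOD subsets. Of all genes, 1.79% and 0.599% were called higher in these comparisons. Zbtb32 is also known from plasma cells. Ahnak was about as high in B6 T1 (1.35) and B6 T2FO (1.19) as in NOD T2FO (1.32). Of the uncalled genes of this list, Cd5 was 1.18 in NOD T2FO and 0.01 in B6 T2FO, Plac8 0.18 and -0.45, and Bhlhe41 0.15 and 0.37. The median of the B-1 list was 1.16 and 1.11 on the NOD T2FO arrays and lay between -0.50 and 0.28 on the other 22 arrays. NK genes were high on B6 T2FO replicate 2, with a list median of 1.87. The part of B-1 cells, NK cells or dividing cells in the T2FO differences was not tested.

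Replicate differences of Prdm1, Irf4 and Mzb1 ran with the 5′ control in B6. Over the 12 B6 arrays the deviation from the group mean correlated with the deviation of the 5′ minus 3′ control at -0.88 for Prdm1, -0.92 for Irf4 and 0.91 for Mzb1, and at -0.33 to 0.33 for Xbp1, Sdc1 and Eaf2. In NOD the 5′ minus 3′ control varied less, from -0.68 to 0.63. Its lowest value was that of NOD labelled T2FO replicate 1, and replicate 2 of that group was at 0.09. The NOD correlations ran from 0.06 for Eaf2 to 0.74 for Xbp1. These are descriptions over 6 replicate pairs per strain. With the control difference as a covariate, Prdm1 in T2FO differed between NOD and B6 by 3.20 (adjusted p = 3.10e-04).

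**Figure D5:**
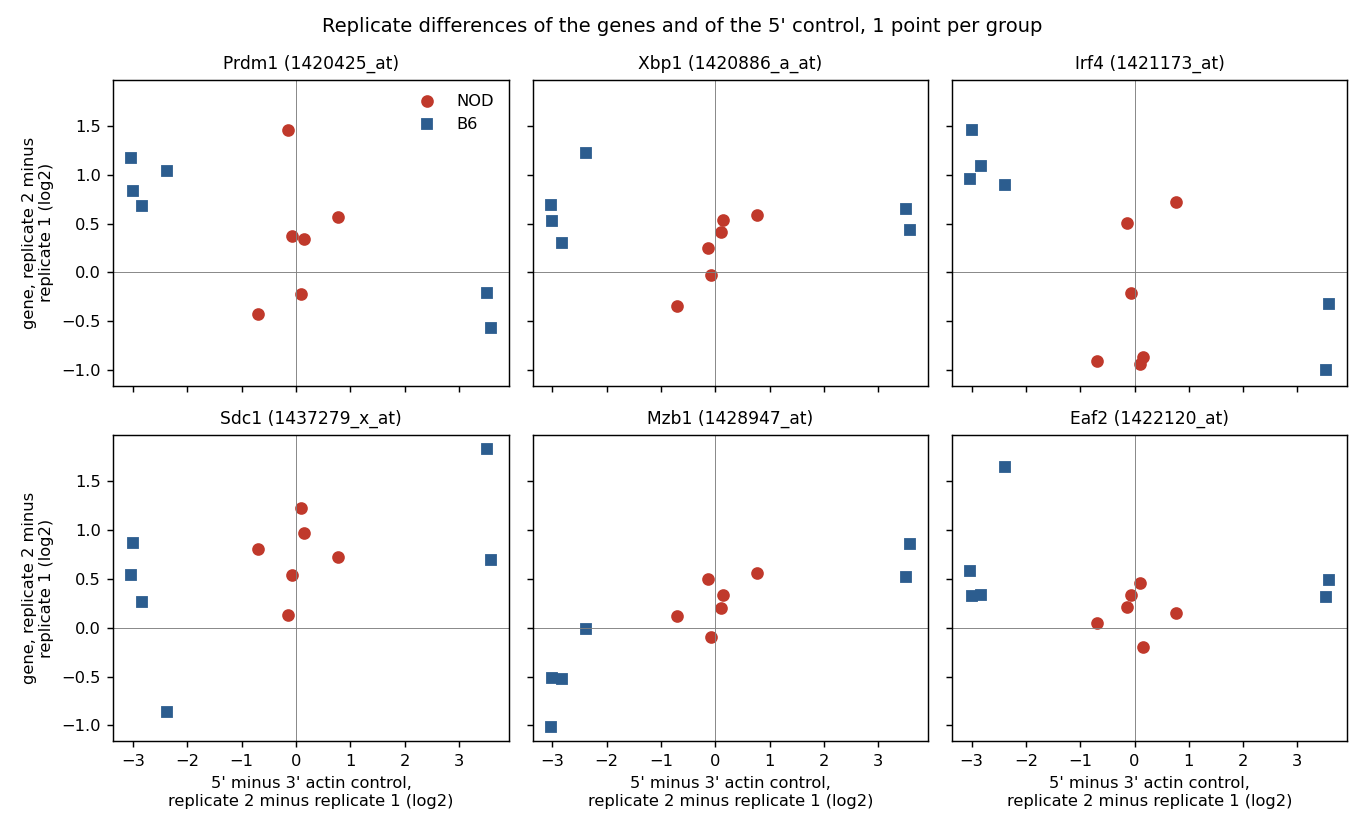
Replicate 2 minus replicate 1 of each lead probe set (vertical axis, log2) against the same difference of the 5′ minus 3′ beta-actin control (horizontal axis, log2), 1 point per group, NOD as red circles and B6 as blue squares. The B6 points lie far left or far right, and there Prdm1 and Irf4 fall and Mzb1 climbs with the control.

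Across the 12 group means, which share arrays and pools and give no independent points, Prdm1 ran with Mzb1 (Pearson correlation 0.84), Irf4 (0.78) and Xbp1 (0.74) but not with Sdc1 (0.03). Within B6 alone, over 6 group means, Prdm1 correlated with Mzb1 at 0.88 and with Sdc1 at -0.68, and within NOD at 0.90 and 0.39. The genes whose group means were most like each gene were Npr2 (0.964), Tcf20 (0.943) and Rhcg (0.942) for Prdm1, and Hsp90b1 (0.969), Lman1 (0.958) and Hspa13 (0.954) for Xbp1. They were Mapt (0.944), Cacng6 (0.943) and Spn (0.926) for Sdc1, Endod1 (0.942), Itm2c (0.935) and Ly86 (0.933) for Mzb1, and Bmpr1a (0.943), Bhlha15 (0.942) and Man2a2 (0.933) for Eaf2. For Irf4 they were Itm2c (0.864), Cabyr (0.852) and Nipa1 (0.849). These are the highest of 18193 genes by that measure and were not tested.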

How the data were processed

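The log2 values are those the authors deposited, and per the submitters' processing notes they come from RMA. Its version, the log base (taken as 2) and a genome build are not given in the sources used here. Each probe set's median across arrays was 0 (5e-07 at most in size), so a filter on dim probe sets was not run. Of 45101 probe sets, 64 were controls and 34945 of the rest had 1 gene in the platform's annotation. Groups and replicate numbers came from the labels.

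Tests used limma 3.58.1 (R 4.3.3) on 45037 probe sets, with 1 mean per group over 12 groups, contrasts and eBayes. NOD against B6 over subsets used 4 pool means, each of 1 strain and 1 replicate number. A Benjamini-Hochberg adjusted p under 0.05 over all probe sets was called. The number of arrays, 2 in each group from 2 pools of a strain, limits the precision. Array medians lay between -0.039 and 0.059. The code was tested on simulated data. Other lists used the most variable probe set of each gene, with up to 4 called genes of smallest adjusted p named; listed genes with no probe set of their own, such as Lck, Clec9a, Klrb1c, Fcrl5 and Ccnb1, were not analysed here. Motifs were searched in the 250 bases before each RefSeq start, without the bases after it. Members and lists were chosen with earlier results of these data known. So were the T2FO contrasts within strains and NOD T2FO against B6 T1. Figures were drawn with matplotlib 3.10.9.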

Additional observations from a re-analysis of the deposited data

How the results depend on the processing

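The values below count how many of the 6 genes had at least 1 called probe set. No called difference of a member changed sign under any alternative run. Of 23 called member results, all 23 held with only probe sets of 1 gene, with the control covariate, with the pool as a random block and without the 6 B6 arrays low in the 5′ control, 22 held with array medians removed, with quantile scaling and with the replicate block, 19 with array weights and 10 with only the compared arrays, while of 70 results with 1 array or pool left out 23 held and 47 did not. Fitting only the compared arrays gave 1 gene in T1, 0 in T2FO, FO, T2MZ and MZ, 0 among the B6 subsets, 2 in MZ against FO of NOD, 0 in that of B6 and 0 in NOD T2FO against B6 T1, where fewer arrays estimate the spread. The control covariate gave 2 genes in T3, 3 in FO, 4 among the B6 subsets, and 2 and 4 in MZ against FO of NOD and of B6. Array weights gave 4 in T1, 2 in FO, 1 among the B6 subsets and 2 in MZ against FO of NOD. Quantile scaling gave 2 in FO, 1 among the B6 subsets, 2 in MZ against FO of NOD and 1 in the difference of the strains in the T2FO contrast. MZ against FO of NOD had 1 gene with only probe sets of 1 gene, with the most variable probe set per gene or with the pool as a random block, and 2 with the mean of probe sets. The most variable probe set gave 1 among the B6 subsets, the mean of probe sets 1 in NOD T2FO against B6 T1, and arrays taken as independent 3 over all subsets. The cause of these changes was not tested.

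Same-numbered deviations correlated at -0.04 to 0.51 in NOD. In B6 they correlated at 0.73 to 0.87 among T1, T2FO, T3 and T2MZ, at 0.71 between FO and MZ, and at -0.62 to -0.37 across these sets, as if FO and MZ carried crossed numbers, and the low 5′ control switches number in the same way. The labels do not say what a number marks, so no pairing was assumed in the fits over arrays. The replicate block gave 5 genes in T2FO, 1 in T3, 2 and 2 in MZ against FO of NOD and of B6, and 1 in the difference of the strains in the T2FO contrast, and it changed no other count by more than 1.5 times. With B6 FO and MZ numbers crossed in that block, chosen after seeing the data, the counts were 3 in FO, 2 in MZ, 4 among the B6 subsets, 4 in MZ against FO of B6 and 3 in the difference of the strains. Leaving out the 6 B6 arrays low in the 5′ control, also chosen after seeing the data, gave 2 over all subsets, 4 in T1, 5 in T2FO, 3 in T3, 2 in T2MZ and 2 in MZ against FO of NOD.

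Leaving out 1 array or pool gave 0 to 1 genes over all subsets (1 without B6 replicate 2), 1 to 2 in T1, 0 to 3 in T2FO, 0 to 2 in T3, 1 to 1 in FO, 0 to 0 in T2MZ and in MZ, 0 to 0 among the NOD subsets, 3 to 4 among the B6 subsets, 0 to 0 in MZ against FO of NOD and of B6, 0 to 0 in T2FO against the other 5 subsets of NOD, of B6 and in their difference, and 0 to 2 in NOD T2FO against B6 T1. The number of all probe sets called in T2FO was 1162, against 9 with the 4 compared arrays alone and 4302 with the control covariate. The lone array of a reduced group is assumed to vary like the other groups. Since levels are missing, signal over background limits these values to an unknown degree.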
